A study of Mus musculus with 15 samples.

Results

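The NuRD complex was followed through its subunit transcripts, with the 3 paralogues Mta1, Mta2 and Mta3 at the center. A list of 10 subunits was taken (Mta1, Mta2, Mta3, Hdac1, Hdac2, Chd3, Chd4, Mbd2, Mbd3 and Gatad2a), and each was read from the probe row annotated to that gene alone. Of these 10 members, 9 have such a row among 16755 rows in all, and Hdac1 has none. All 9 measured members passed into the analysis, since no filter on low values was applied.

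RNA from mouse embryonic fibroblasts (MEFs) of the C57BL/6J strain was hybridized to 15 Affymetrix Mouse Exon 1.0 ST chips, 3 for each of 5 groups. WT MEFs came from wild type embryos at E9.0, and Mta1-KO MEFs from embryos of the same age with the genotype Mta1-/-. Mta1-KO/Mta1 MEFs, also from E9.0 embryos, are Mta1-/- cells into which Mta1 was put back. P53-KO/Mta1 MEFs are P53-/- cells in which Mta1 was over expressed. Both P53-/- groups, P53-KO and P53-KO/Mta1, came from embryos at E12.5. These P53-/- MEFs were given to the study by another laboratory, so genotype, embryo age and origin of the cells cannot be told apart between them and WT. The labels call the arrays of WT, Mta1-KO and P53-KO biological replicates, and the study's text does so for every group. Whether these were separate embryos or cultures, or whether a line was 1 clone, was not given in the sources used here, so the spread behind each p-value is that among these arrays. The study also compared Mta1 protein among the 5 groups by Western blot, which was not analysed here.

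NuRD joins a histone deacetylase and a nucleosome remodeling ATPase in a single complex that lowers or tunes transcription at the chromatin it is recruited to. The MTA proteins are the scaffold that holds and activates the deacetylases HDAC1 and HDAC2, the MBD proteins link to methylated DNA or to other chromatin, GATAD2 proteins bridge the MBD subunit to the remodeler, and CHD3 or CHD4 moves nucleosomes. Several positions can be filled by one paralogue or another, and MTA1, the member deleted here, is named for its raised expression in metastatic tumors.

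All values are the authors' normalized log2 values, with each row centered on its own median over the 15 arrays. A value of 0 is thus the middle array for that gene, and no level can be set against that of another gene. A difference between groups was called at an adjusted p under 0.05 in limma, and intervals are 95% intervals of the difference. Because these are bulk RNA samples, fewer cells of a kind and less RNA per cell cannot be told apart.

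The transcript of Mta1 itself fell from WT to Mta1-KO, and the arrays labelled Mta1-KO/Mta1 showed no rise of it. Mta1 lies on chromosome 12 at chr12:113098248-113137206 (GRCm38.p6, from RefSeq). Its WT arrays read 0.08, -0.06 and 0.00, against -1.06, -1.08 and -1.10 for the knockout. The arrays labelled as re-expressing it read -1.13, -1.35 and -1.28. Every Mta1-/- array, with or without the reintroduced gene, thus lay far below every other array. The P53-KO arrays read 0.36, 0.52 and 0.37, and the P53-KO/Mta1 arrays 0.65, 0.76 and 0.65, so that the 3 over expressing arrays were the highest of all 15.

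For Mta1, the knockout differed from WT by -1.09 (interval -1.23 to -0.94, 2.12-fold lower, limma adjusted p = 6.17e-09). The arrays labelled Mta1-KO/Mta1 differed from Mta1-KO by -0.17 (interval -0.31 to -0.03, adjusted p = 0.0669 in limma). That difference passed the threshold without Mta1-KO/Mta1 replicate 1 (-0.23, adjusted p = 0.0217), without P53-KO replicate 2 (adjusted p = 0.0460) and after quantile normalization (-0.28, limma adjusted p = 0.00484), each time in the direction opposite to a gain. In P53-/- cells, over expression moved the row up by 0.27 (interval 0.13 to 0.41, 1.21-fold, limma adjusted p = 0.00603). The sources do not say which exons the probes of this row cover, and the row checks neither the deletion nor the reintroduction, since its probes may not overlap either sequence. No row is annotated to Trp53, and the P53 genotype was not checked.

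Mta2, a widely expressed paralogue of the scaffold, was lower in Mta1-KO rather than higher. Its WT arrays read 0.26, 0.23 and 0.13, its Mta1-KO arrays -0.24, -0.17 and -0.21, and its Mta1-KO/Mta1 arrays -0.13, -0.04 and 0.00. All 3 WT arrays were the highest of the 15, and the Mta1-KO/Mta1 arrays lay between WT and Mta1-KO without touching either. The P53-KO arrays read -0.24, 0.02 and -0.16, and the P53-KO/Mta1 arrays 0.11, 0.03 and 0.10, next to each other but not overlapping.

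The change in Mta2 from WT to Mta1-KO was -0.41 (interval -0.55 to -0.27, 1.33-fold lower, limma adjusted p = 0.000112). Mta1-KO/Mta1 was 0.15 above Mta1-KO (interval 0.01 to 0.29, limma adjusted p = 0.102) and 0.26 below WT (difference -0.26, limma adjusted p = 0.00476). P53-KO/Mta1 was 0.21 above P53-KO (interval 0.07 to 0.35, limma adjusted p = 0.0245). The last call was lost when any of 4 arrays was left out, namely P53-KO replicate 1 or 3 or P53-KO/Mta1 replicate 1 or 3 (limma adjusted p between 0.0707 and 0.114), and the Mta1-KO/Mta1 difference passed without P53-KO replicate 2 (0.0408).

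Mta3, the paralogue studied in B cells and in breast epithelium, did not pass the test between Mta1-KO and WT. Its WT arrays read 0.10, 0.15 and -0.02, its Mta1-KO arrays 0.11, 0.21 and 0.13, and its Mta1-KO/Mta1 arrays -0.05, 0.08 and 0.00. WT overlapped both of the other groups, and the Mta1-KO arrays lay just above the Mta1-KO/Mta1 arrays. The P53-KO arrays read -0.38, 0.01 and -0.32, with replicate 2 well above its fellows, and the P53-KO/Mta1 arrays -0.55, -0.48 and -0.43, the lowest of all.

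The change in Mta3 from WT to Mta1-KO was 0.07 (interval -0.12 to 0.26, limma adjusted p = 0.569), an interval that leaves room for a rise of up to 0.26 and for a small fall. Mta1-KO/Mta1 against Mta1-KO gave -0.14 (interval -0.33 to 0.05, limma adjusted p = 0.299). In P53-/- cells, over expression of Mta1 went with a change of -0.26 in Mta3 (interval -0.45 to -0.07, limma adjusted p = 0.037), so that Mta3 was lower where Mta1 and Mta2 were higher. Without P53-KO replicate 2 this difference was -0.14 (limma adjusted p = 0.127), and it was also lost without any of the 3 P53-KO/Mta1 arrays. Against WT, Mta3 was lower in P53-KO (-0.31, limma adjusted p = 0.00819) and in P53-KO/Mta1 (-0.56, limma adjusted p = 7.61e-05).

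**Figure D1:**
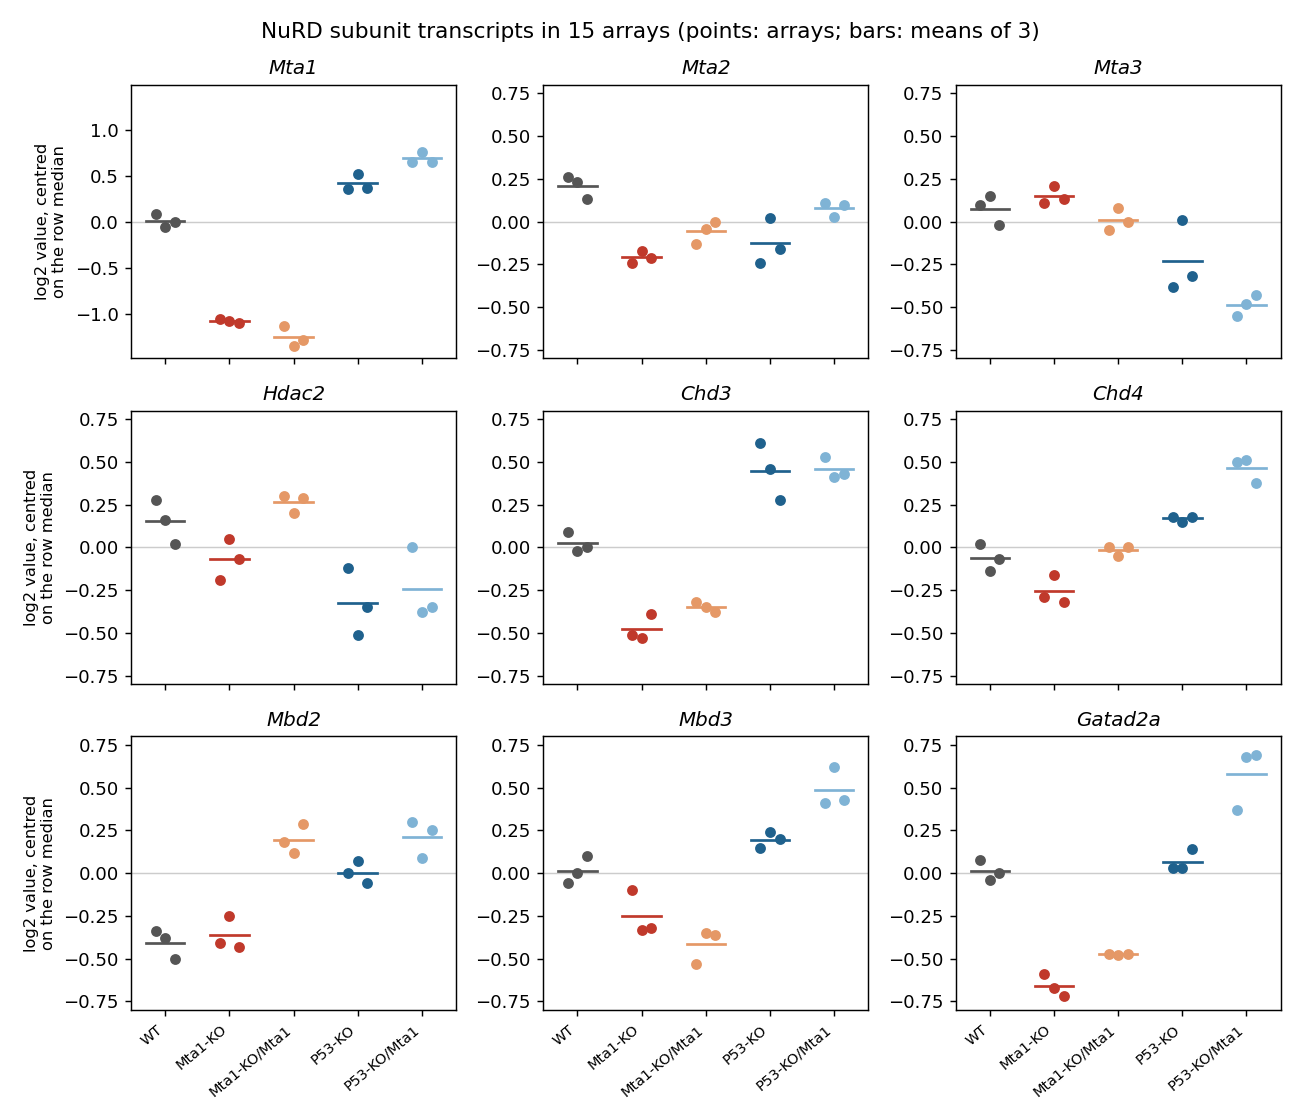
Centered log2 value of each measured NuRD subunit (vertical axis) in the 5 groups (horizontal axis), with a point for each array and a bar at the mean of 3; the Mta1 panel has a wider axis than the others. Mta1 lies near -1 in both Mta1-/- groups, Gatad2a and Chd3 are also low there, and Mbd2 rises only in the arrays labelled Mta1-KO/Mta1 among the 3 groups from E9.0 embryos.

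The balance between the paralogues was described by subtracting, within each array, the centered value of one paralogue from that of another. A balance against Mta1 rises when Mta1 falls, also where the other paralogue does not change. It is therefore no test of compensation. Mta2 minus Mta1 had a mean of 0.20 ± 0.0853 in WT (SD, n = 3), 0.87 ± 0.0495 in Mta1-KO and 1.20 ± 0.170 in Mta1-KO/Mta1. It was -0.55 ± 0.0504 in P53-KO and -0.61 ± 0.106 in P53-KO/Mta1. The higher balance in the Mta1-/- arrays went with lower Mta1, since Mta2 itself fell from WT to Mta1-KO.

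Mta3 minus Mta1 was 0.07 ± 0.123 in WT, 1.23 ± 0.0619 in Mta1-KO and 1.26 ± 0.176 in Mta1-KO/Mta1, against -0.65 ± 0.122 in P53-KO and -1.18 ± 0.0835 in P53-KO/Mta1 (SD, n = 3 each). Mta3 minus Mta2, which leaves out the deleted gene, was between -0.16 and -0.08 in the WT arrays and between 0.34 and 0.38 in the Mta1-KO arrays. In Mta1-KO/Mta1 it lay between 0.00 and 0.12, apart from both. The P53-KO/Mta1 arrays, between -0.66 and -0.51, lay apart from P53-KO, between -0.16 and 0.00. The Mta3 to Mta2 balance was therefore highest in Mta1-KO and lowest in P53-KO/Mta1. It did not follow the Mta1 row over all groups. Its mean was 0.06 in Mta1-KO/Mta1, where that row was lowest, and -0.10 in P53-KO against -0.13 in WT. The P53-/- cells also differ from WT in embryo age and origin. In Mta1-KO against WT, of the 2 parts of this balance only Mta2 passed the test on its own. No test was run on the balances.

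**Figure D2:**
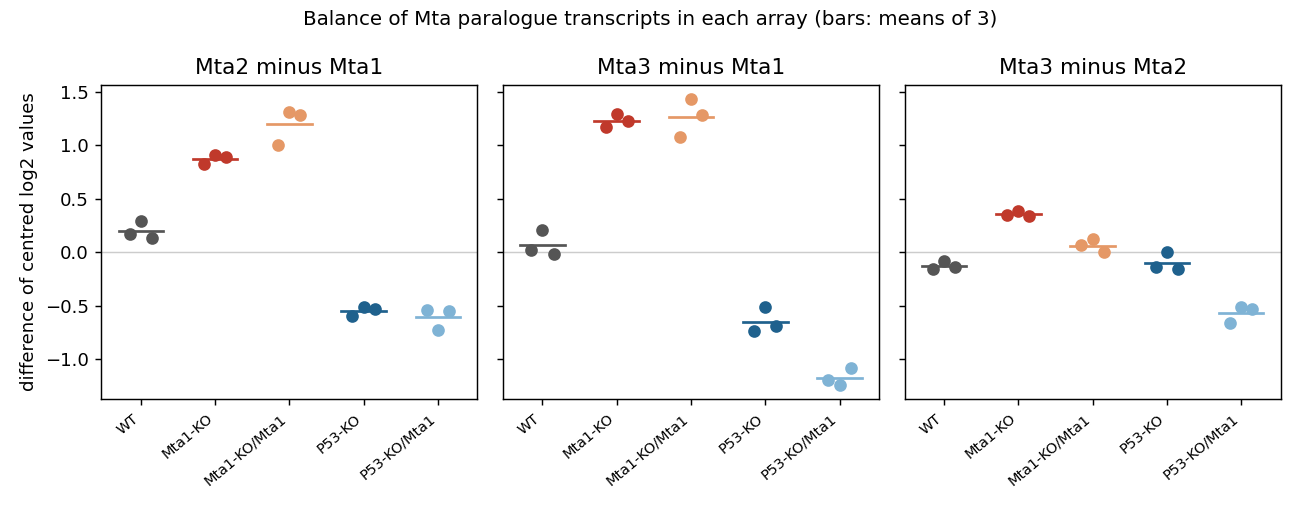
Difference of centered log2 values between pairs of Mta paralogues (vertical axis) in each array of the 5 groups (horizontal axis), with bars at means of 3. Mta3 minus Mta2 sits between 0.34 and 0.38 in the Mta1-KO arrays and between -0.66 and -0.51 in the P53-KO/Mta1 arrays.

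The promoters of Mta1, Mta2 and Gatad2a are shown because the deleted gene, its paralogue Mta2 and the member with the largest fall after Mta1 were all lower in Mta1-KO than in WT and higher in P53-/- cells given Mta1. Chd4 and Mbd3 were called in the same directions in these comparisons, so this is not particular to the genes shown. Each run is the 250 bases before the transcript start listed first for the gene in RefSeq (GRCm38.p6), 5′ to 3′ on the gene's strand, at chr12:113098028-113098277 (plus strand) for Mta1, chr19:8941670-8941919 (plus strand) for Mta2 and chr8:69996385-69996634 (minus strand) for Gatad2a. For Mta1 and Gatad2a that start lies inside the gene's annotated span, so the last bases of these runs overlap it. Capitals mark matches on either strand to GGGCGG, the core of a GC box, and to CCAAT.
Mta1: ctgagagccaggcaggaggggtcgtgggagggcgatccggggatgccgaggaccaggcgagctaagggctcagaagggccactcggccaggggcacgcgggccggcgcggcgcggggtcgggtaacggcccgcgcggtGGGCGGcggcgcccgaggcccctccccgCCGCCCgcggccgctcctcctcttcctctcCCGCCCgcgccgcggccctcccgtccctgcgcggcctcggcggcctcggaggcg
Mta2: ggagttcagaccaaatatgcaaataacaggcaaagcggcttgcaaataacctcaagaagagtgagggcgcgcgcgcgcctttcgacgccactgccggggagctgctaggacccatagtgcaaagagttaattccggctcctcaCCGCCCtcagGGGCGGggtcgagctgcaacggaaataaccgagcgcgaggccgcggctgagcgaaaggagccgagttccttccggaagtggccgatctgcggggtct
Gatad2a: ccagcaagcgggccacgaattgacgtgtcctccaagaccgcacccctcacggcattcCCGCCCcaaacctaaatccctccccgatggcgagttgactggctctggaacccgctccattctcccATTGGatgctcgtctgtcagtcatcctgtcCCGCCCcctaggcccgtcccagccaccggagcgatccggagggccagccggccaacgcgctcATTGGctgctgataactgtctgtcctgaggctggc

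The Mta1 run holds 3 matches to GGGCGG, the Mta2 run 2 and the Gatad2a run 2, while Gatad2a alone of these 3 holds matches to CCAAT, with 2. Of 27025 gene promoters of the same length, 32.9% hold GGGCGG and 34.5% hold CCAAT on either strand. Mta1 has 39 CG dinucleotides in this window, as many as or more than which only 1.54% of promoters have, against 24 in Mta2 (11.7%) and 18 in Gatad2a (21.6%). Promoters were found for 6 of the 9 measured members. The other 3 matched ones, Hdac2, Chd4 and Mbd3, hold 27, 12 and 14 CG dinucleotides. They hold 1, 2 and 1 matches to GGGCGG, so each of the 6 matched members has this run, also Hdac2, which was called in neither comparison. Mbd3 holds 3 matches to CCAAT, and Hdac2 and Chd4 hold 0. A match is a run of letters and not a site shown to be bound.

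Hdac2, a catalytic deacetylase of the complex, varied as much within groups as between most of them. Its WT arrays read 0.28, 0.16 and 0.02, its Mta1-KO arrays -0.19, 0.05 and -0.07, and its Mta1-KO/Mta1 arrays 0.30, 0.20 and 0.29. The P53-KO arrays read -0.12, -0.51 and -0.35 and the P53-KO/Mta1 arrays 0.00, -0.38 and -0.35. In the order of group means, each group overlapped its neighbor. Groups further apart in that order could separate, as both P53-/- groups lay wholly below WT and Mta1-KO/Mta1 wholly above Mta1-KO. The difference between Mta1-KO and WT was -0.22 (interval -0.47 to 0.02, limma adjusted p = 0.145).

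Mta1-KO/Mta1 was 0.33 above Mta1-KO in Hdac2 (interval 0.09 to 0.58, 1.26-fold, limma adjusted p = 0.0417). This call was lost when any of 7 arrays was left out (limma adjusted p between 0.0534 and 0.159): WT replicate 2, Mta1-KO replicates 1 and 3, any of the 3 Mta1-KO/Mta1 arrays, and P53-KO replicate 3. In the P53-/- cells the difference was 0.09 (interval -0.16 to 0.33, limma adjusted p = 0.651). Hdac2 was lower than in WT in both P53-KO (-0.48, limma adjusted p = 0.00226) and P53-KO/Mta1 (-0.40, limma adjusted p = 0.00969).

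Both remodeling ATPases, Chd3 and Chd4, were lower in Mta1-KO than in WT, Chd3 by more. Chd3 read 0.09, -0.02 and 0.00 in WT, -0.51, -0.53 and -0.39 in Mta1-KO, and -0.32, -0.35 and -0.38 in the arrays labelled Mta1-KO/Mta1. It read 0.61, 0.46 and 0.28 in P53-KO and 0.53, 0.41 and 0.43 in P53-KO/Mta1. The arrays thus formed a low Mta1-/- set, WT, and a high P53-/- set. From WT to Mta1-KO, Chd3 fell by 0.50 (difference -0.50, interval -0.65 to -0.34, 1.41-fold lower, limma adjusted p = 6.19e-05), while it was 0.43 higher in P53-KO than in WT (limma adjusted p = 0.000155).

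Neither introduction of Mta1 passed the test for Chd3. Mta1-KO/Mta1 against Mta1-KO gave 0.12 (interval -0.03 to 0.28, limma adjusted p = 0.272), and P53-KO/Mta1 against P53-KO gave 0.01 (interval -0.15 to 0.16, limma adjusted p = 0.964).

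Chd4, the ATPase found in most NuRD preparations, passed the test in all 3 of these comparisons. It read 0.02, -0.14 and -0.07 in WT, -0.29, -0.16 and -0.32 in Mta1-KO, and 0.00, -0.05 and 0.00 in the arrays labelled Mta1-KO/Mta1. The P53-KO arrays read 0.18, 0.15 and 0.18, and the P53-KO/Mta1 arrays 0.50, 0.51 and 0.38. Mta1-KO was the lowest group, Mta1-KO/Mta1 overlapped WT, and P53-KO/Mta1 was the highest.

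The change in Chd4 from WT to Mta1-KO was -0.19 (interval -0.32 to -0.07, limma adjusted p = 0.0154), and the call was lost without WT replicate 1 or without Mta1-KO replicate 1 or 3 (limma adjusted p between 0.0574 and 0.0817). Mta1-KO/Mta1 was 0.24 above Mta1-KO (interval 0.11 to 0.36, limma adjusted p = 0.00627). P53-KO/Mta1 was 0.29 above P53-KO (interval 0.17 to 0.42, limma adjusted p = 0.00138). Mta1-KO/Mta1 differed from WT by 0.05 (limma adjusted p = 0.629). Chd3 minus Chd4 was between 0.06 and 0.12 in the WT arrays and between -0.37 and -0.07 in the Mta1-KO arrays.

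Mbd2, the subunit that binds methylated CpG sites, was set apart by the arrays labelled Mta1-KO/Mta1. Its WT arrays read -0.34, -0.38 and -0.50 and its Mta1-KO arrays -0.41, -0.25 and -0.43, while the Mta1-KO/Mta1 arrays read 0.18, 0.12 and 0.29. WT and Mta1-KO overlapped, and the Mta1-KO/Mta1 arrays lay above all 6 of them. The P53-KO arrays read 0.00, 0.07 and -0.06, and the P53-KO/Mta1 arrays 0.30, 0.09 and 0.25, just above them.

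For Mbd2, the knockout differed from WT by 0.04 (interval -0.12 to 0.20, limma adjusted p = 0.714). Mta1-KO/Mta1 was 0.56 above Mta1-KO (interval 0.40 to 0.72, 1.47-fold, limma adjusted p = 5.92e-05) and 0.60 above WT (limma adjusted p = 1.11e-05), so it was not a return toward WT. P53-KO/Mta1 was 0.21 above P53-KO (interval 0.05 to 0.37, limma adjusted p = 0.0443), a call that was lost when any of 7 arrays was left out (limma adjusted p between 0.0534 and 0.160). The difference between these rises was 0.35 (interval 0.13 to 0.57, limma adjusted p = 0.0304), which was lost when any of 7 arrays was left out (limma adjusted p between 0.0511 and 0.0801).

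Mbd3, which takes the place of Mbd2 in a separate form of NuRD and binds methylated DNA weakly in mammals, moved otherwise. It read -0.06, 0.00 and 0.10 in WT, -0.10, -0.33 and -0.32 in Mta1-KO, and -0.53, -0.35 and -0.36 in the arrays labelled Mta1-KO/Mta1. In the P53-/- cells it read 0.15, 0.24 and 0.20 without added Mta1 and 0.41, 0.62 and 0.43 with it. The 5 groups did not overlap in the order Mta1-KO/Mta1, Mta1-KO, WT, P53-KO and P53-KO/Mta1, which is also the order of the Mta1 row. Not every step of this order passed the test. Mta1-KO/Mta1 against Mta1-KO passed for neither gene, and P53-KO against WT did not pass for Mbd3 (0.19, limma adjusted p = 0.0602).

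For Mbd3, the knockout differed from WT by -0.26 (interval -0.43 to -0.09, limma adjusted p = 0.0143), a call lost without WT replicate 3 or without Mta1-KO replicate 2 or 3 (limma adjusted p between 0.0546 and 0.0625). Mta1-KO/Mta1 against Mta1-KO gave -0.16 (interval -0.33 to 0.00, limma adjusted p = 0.154). P53-KO/Mta1 was 0.29 above P53-KO (interval 0.12 to 0.46, limma adjusted p = 0.0116, and 0.0605 without P53-KO/Mta1 replicate 2). These responses differed by -0.45 (interval -0.69 to -0.21, limma adjusted p = 0.0110). Mbd2 minus Mbd3 was between -0.59 and -0.29 in WT, between -0.31 and 0.08 in Mta1-KO and between 0.46 and 0.71 in Mta1-KO/Mta1, where alone all 3 arrays were above 0.

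Gatad2a, which bridges the MBD subunit and the remodeler, showed the largest fall after Mta1 itself from WT to Mta1-KO. Its WT arrays read 0.08, -0.04 and 0.00, its Mta1-KO arrays -0.59, -0.67 and -0.72, and its Mta1-KO/Mta1 arrays -0.47, -0.48 and -0.47. The P53-KO arrays, at 0.03, 0.03 and 0.14, overlapped WT, and the P53-KO/Mta1 arrays, at 0.37, 0.68 and 0.69, were above all others.

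Mta1-KO differed from WT by -0.67 in Gatad2a (interval -0.84 to -0.51, 1.59-fold lower, limma adjusted p = 5.14e-06). Mta1-KO/Mta1 was 0.19 above Mta1-KO (interval 0.02 to 0.35, limma adjusted p = 0.0915, and 0.0160 without P53-KO/Mta1 replicate 1) and remained 0.49 below WT (difference -0.49, limma adjusted p = 0.000123). P53-KO/Mta1 was 0.51 above P53-KO (interval 0.35 to 0.68, 1.43-fold, limma adjusted p = 0.000155). The difference between these responses was -0.33 (interval -0.56 to -0.09, limma adjusted p = 0.0535), and without P53-KO/Mta1 replicate 1 it was -0.43 (limma adjusted p = 0.00195).

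**Figure D3:**
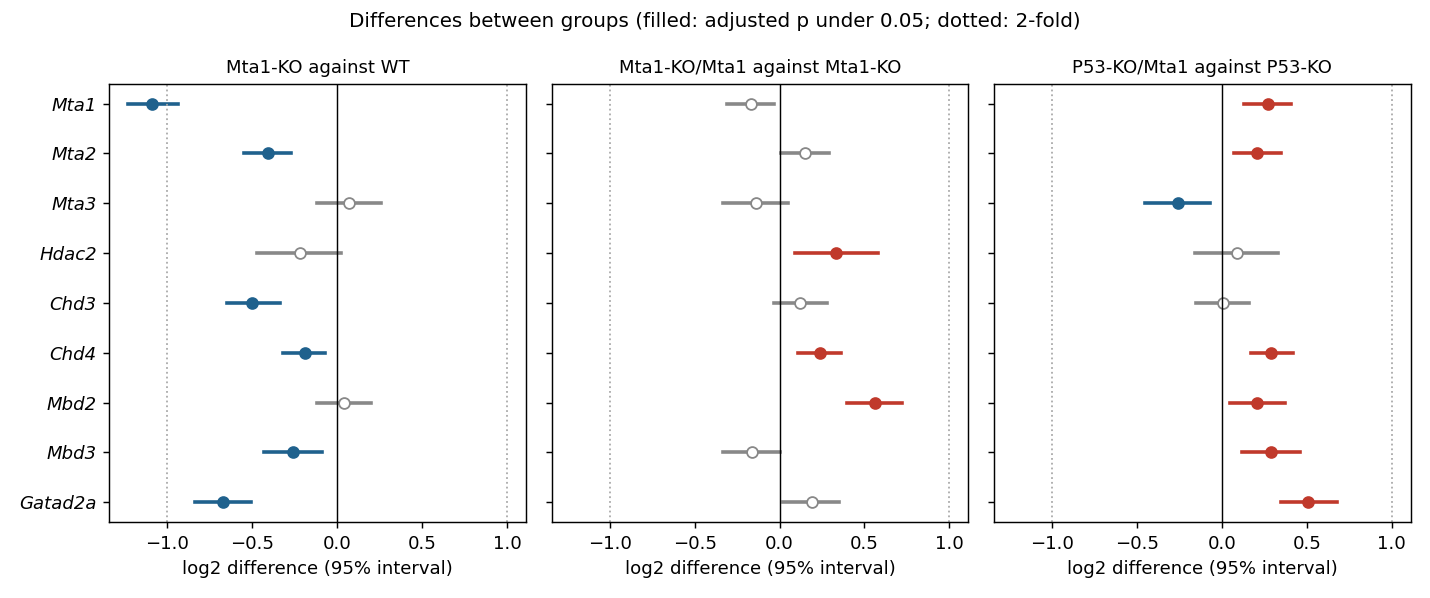
Log2 difference of each measured subunit (horizontal axis, with 95% intervals) in 3 comparisons; filled points have a limma adjusted p under 0.05 and dotted lines mark a 2-fold difference. In Mta1-KO against WT the filled points are all below 0, in P53-KO/Mta1 against P53-KO all but Mta3 are above 0, and only Mta1 in the first comparison reaches 2-fold.

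Counted together in limma, 6 of the 9 measured members fell and 0 rose from WT to Mta1-KO, where 22.6% of all rows were lower, 17.6% higher and 40.2% called in either direction. The members that fell were Mta1, the gene deleted by design, and Mta2, Chd3, Chd4, Mbd3 and Gatad2a. None of the 9 was called higher. With Mta1 in it, this count is not one of untargeted members alone. Of the 9, only Mta2 and Mta3 are paralogues of Mta1, and whether they compensate for its loss was not tested. The median difference of the members was -0.26, against 0.03 over all rows. By the methods' t-test 4 of the 6 passed, and Chd4 (adjusted p = 0.119) and Mbd3 (adjusted p = 0.0976) did not. At the study's minimum of 2-fold only Mta1 passed, where 6.64% of all rows did.

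In Mta1-KO/Mta1 against Mta1-KO, 3 members (Hdac2, Chd4 and Mbd2) were higher and 0 lower, where 12.4% of all rows were higher, 15.7% lower and 28.0% called in all. The median was 0.15, against -0.03 over all rows. With over expression in P53-/- cells, 6 members (Mta1, Mta2, Chd4, Mbd2, Mbd3 and Gatad2a) were higher and Mta3 was lower, where 15.7% of all rows were higher, 14.2% lower and 29.9% called in all. The median was 0.21, against -0.02 over all rows. Mta1, the gene over expressed by design, is counted among the 6. By the methods' t-test, Chd4 alone of these 7 passed. None of these differences reached 2-fold, while 1.11% and 1.62% of all rows did so in the respective comparisons. Mta1-KO arrays enter both of the first comparisons, so a low value there moves each of them.

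The test of the difference between the introduction of Mta1 in Mta1-/- and in P53-/- cells called 3 members, Mbd2 in favor of the Mta1-/- cells and Mta1 and Mbd3 in favor of the P53-/- cells, where 7.31% of all rows were called in the first direction, 10.1% in the second and 17.4% in all. None of the 3 differences reached 2-fold, as 1.63% of all rows did. For Mta1 this difference was -0.44 (interval -0.64 to -0.24, limma adjusted p = 0.00418). For Mta2 it was -0.06 (interval -0.25 to 0.14, limma adjusted p = 0.801), and for Chd4 also -0.06 (limma adjusted p = 0.774).

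Set against WT, the arrays labelled Mta1-KO/Mta1 had 5 members lower and 1 higher, where 22.8% of all rows were lower, 15.7% higher and 38.5% called in all. Of these 6 calls, that of Mta1 (-1.26, 2.39-fold lower) reached 2-fold, as 5.74% of all rows did. P53-KO had 4 members higher (Mta1, Chd3, Chd4 and Mbd2) and 3 lower (Mta2, Mta3 and Hdac2), where 26.0% of rows were higher, 27.4% lower and 53.5% called in all. By the methods' t-test 5 of these 7 passed, without Mta3 and Hdac2. P53-KO/Mta1 had 6 higher and 2 lower, where 20.4% were higher, 25.8% lower and 46.2% called in all. No member reached 2-fold in either group, where 12.1% and 7.67% of all rows did. The same WT arrays are used in each of these comparisons.

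Of the other NuRD subunits on the list, Rbbp4, Rbbp7, Gatad2b and Cdk2ap2 have a row of their own. Of these 4, 2 fell and 0 rose from WT to Mta1-KO, where 22.6% of all rows were lower, 17.6% higher and 40.2% called in all. Rbbp4, a histone chaperone, fell by 0.42 (limma adjusted p = 1.56e-06), and its relative Rbbp7 fell by 0.25 (limma adjusted p = 0.00365). Gatad2b, the paralogue of Gatad2a, gave -0.10 there and did not pass. It was 0.31 higher in Mta1-KO/Mta1 than in Mta1-KO (limma adjusted p = 0.00434) and gave -0.09 with over expression in P53-/- cells (limma adjusted p = 0.392). Rbbp7 was 0.25 higher with over expression in P53-/- cells (limma adjusted p = 0.00471), and differed by -0.88 between P53-KO and WT ( limma adjusted p = 1.30e-08).

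Related lists showed where the members stood among other chromatin genes. Of 23 subunits of the Sin3, CoREST and other complexes that share HDAC1 and HDAC2, 14 fell and 4 rose from WT to Mta1-KO, with a median of -0.24. In that comparison 22.6% of all rows fell and 17.6% rose, with a median of 0.03. Sap30, a Sin3 subunit, differed by -1.65 there (limma adjusted p = 3.52e-10) and was 1.02 higher with over expression in P53-/- cells (limma adjusted p = 3.35e-07). Ing1, which brings Sin3 to methylated histone H3, differed by -1.02 between Mta1-KO and WT (limma adjusted p = 1.60e-06). Among 9 other histone deacetylases with a row, 2 were lower and 1 higher, with a median of -0.05.

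Cell cycle genes and fibroblast markers were counted in the same comparisons. Of all rows, 22.6% were lower and 17.6% higher in Mta1-KO than in WT. In P53-KO against WT 27.4% were lower and 26.0% higher. With over expression in P53-/- cells 14.2% were lower and 15.7% higher, and in Mta1-KO/Mta1 against Mta1-KO 15.7% lower and 12.4% higher. Of 22 cell cycle genes with a row, 14 fell and 2 rose from WT to Mta1-KO (median -0.40), 18 rose and 0 fell with over expression in P53-/- cells (median 0.43), and P53-KO had 18 below WT and 1 above it (median -0.81). In Mta1-KO/Mta1 against Mta1-KO, 5 cell cycle genes were higher and 2 lower (median 0.06). Of 15 fibroblast markers with a row, 13 rose and 0 fell from WT to Mta1-KO (median 0.94), among them Pdgfrb (1.93) and Dcn (4.90), and P53-KO had 13 above WT and S100a4 below it (-1.22). The WT arrays were thus low in markers of the labelled cell type against Mta1-KO and P53-KO. Sox2, a gene of neural and stem cells, differed by -4.46 between Mta1-KO and WT. The other neural markers with a row gave -0.37 (Nes) and -0.12 (Pax6), both called, and 0.06 (Sox1) and 0.02 (Dcx), not called. Of 5 markers of pluripotent cells, 0 were called there. With over expression in P53-/- cells, 11 fibroblast markers fell and 0 rose, and in the arrays labelled Mta1-KO/Mta1 9 fell and 0 rose against Mta1-KO. Centered values do not tell whether a marker was near background. The part of either feature in the NuRD differences was not tested.

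**Figure D4:**
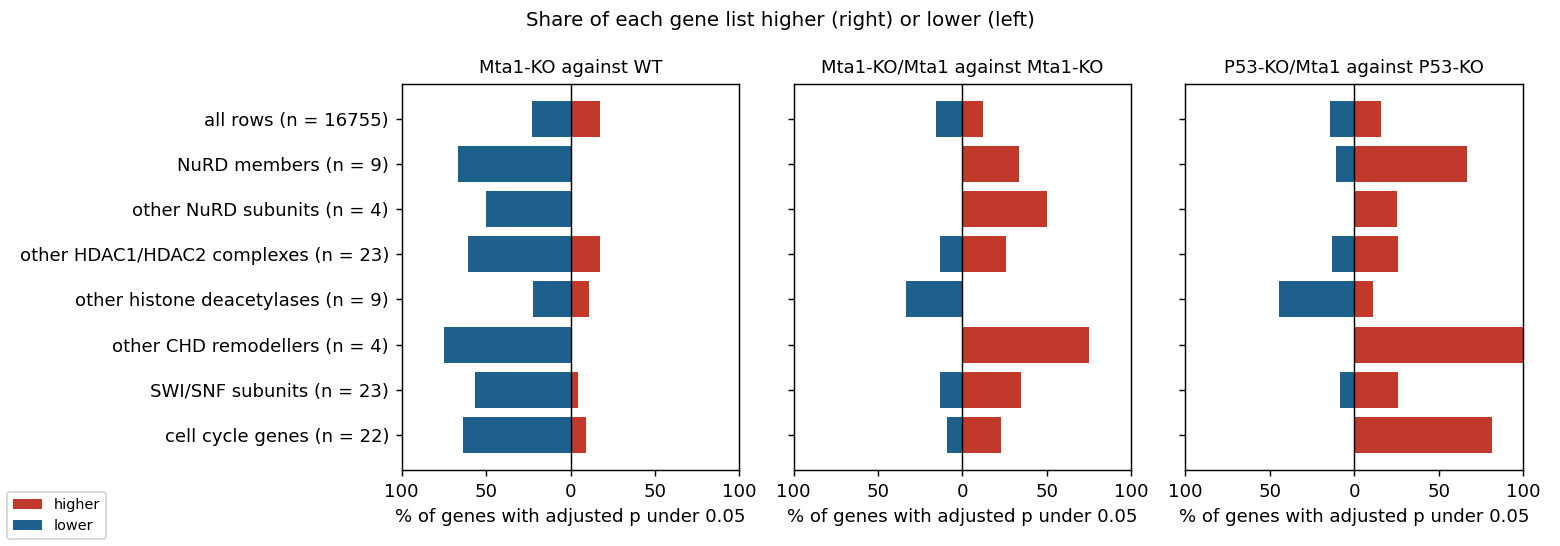
Percent of the genes on each list with a limma adjusted p under 0.05 (horizontal axis, higher to the right and lower to the left) in 3 comparisons, with the number of genes with a row beside each list. Of the NuRD members, 6 of 9 fell from WT to Mta1-KO, the deleted gene Mta1 among them, where 22.6% of all rows did. Of the cell cycle genes, 18 of 22 rose with over expression of Mta1 in P53-/- cells, where 15.7% of all rows did.

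Over the 5 groups, Mta1 had the widest range of group means among the members, 1.94 on the log2 scale, and 4.45% of all rows ranged as far. Gatad2a followed at 1.24 (14.2% of rows), then Chd3 at 0.93 (24.7%) and Mbd3 at 0.90 (26.2%). Mta2 had the narrowest range, 0.41, which 55.5% of all rows equaled or passed, so the members other than Mta1 were not unusual in how far they moved.

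The genes most like each paralogue were taken as those with the smallest root mean square distance between the 5 group means. For Mta1 they were Ndrg1 (0.123), Tmod2 (0.148) and Dbndd2 (0.160). For Mta2 they were Zbtb14 (0.0189), Dync1li1 (0.0310) and Hira (0.0332), and for Mta3 Rpl23 (0.0248), Rhoa (0.0380) and Dynlrb1 (0.0423). The distance grows with how far a gene ranges, so it is not compared between the paralogues. Ndrg1, a stress and hypoxia response gene, had group means of -0.02 in WT, -1.13 in Mta1-KO, -1.01 in Mta1-KO/Mta1, 0.55 in P53-KO and 0.91 in P53-KO/Mta1. This is a description over 5 groups that share 15 arrays.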

How the data were processed

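The deposited table holds normalized log2 ratios that the authors made in GeneSpring GX 10.0.2 from 15 arrays, with each row centered on its median. The way probes were combined into a row was not given in the sources used here. Rows were named through the platform annotation (14996 rows with 1 gene, 1019 with several, 740 with none), and Entrez IDs of 14941 matched RefSeq. Group means were fitted to all 16755 rows with limma 3.58.1 in R 4.3.3 (two-sided moderated tests, Benjamini-Hochberg adjustment over all rows, 10 residual degrees of freedom) and tested on simulated data. The scripts ran in Python 3.11.15. Array medians lay between -0.0165 and 0.0231. The precision is limited by the number of arrays, 3 in a group.

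Named genes are every member with a row, up to 4 genes of each related or marker list that passed the study's thresholds in any comparison, and the 3 rows most like each Mta paralogue. The other NuRD subunits were given as a whole list, after their values were seen. Members and lists were chosen with earlier results of these data known. Alternatives were the methods' t-test, only the compared arrays, quantile normalization, array medians, other limma settings, the 2-fold minimum, a replicate block and each array left out.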

Additional observations from a re-analysis of the deposited data

Results flagged for a closer look

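Of the members, 3 differed between the introduction of Mta1 in Mta1-/- and in P53-/- cells by the limma test of the difference itself, where 17.4% of all rows were called. The difference was taken as the response in Mta1-/- cells minus that in P53-/- cells. Mta1, among the 3, is the introduced gene itself, and its row may not cover the introduced sequence. For Mta1 the difference was -0.44 (limma adjusted p = 0.00418), from changes of -0.17 and 0.27. For Mbd3 it was -0.45 (limma adjusted p = 0.0110), from -0.16 and 0.29. For Mbd2 it was 0.35 (limma adjusted p = 0.0304), from 0.56 and 0.21, a call lost when any of 7 arrays was left out. The cells differed in embryo age and origin as well as in genotype, and these cannot be told apart. The introductions were also unlike, since Mta1 was put back into Mta1-/- cells and over expressed in P53-/- cells.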

How the results depend on the processing

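No member changed sign while called under any alternative run. Of the 9 measured members, 6 passed in Mta1-KO against WT, 3 in the arrays labelled as re-expression, 7 with over expression in P53-/- cells and 3 in the difference between these responses. Against WT, 6 passed in Mta1-KO/Mta1, 7 in P53-KO and 8 in P53-KO/Mta1. Of all rows, 40.2%, 28.0%, 29.9%, 17.4%, 38.5%, 53.5% and 46.2% were called, in the same order. Mta1, the targeted gene, is counted among the members. With the 2-fold minimum the 7 member counts, in the same order, were 1, 0, 0, 0, 1, 0 and 0. Leaving out each array in turn gave 4 to 6, 2 to 5, 4 to 7, 2 to 4, 6 to 6, 7 to 8 and 8 to 8 members. These runs called 6002 to 7197, 3768 to 4956, 4275 to 5159, 2389 to 3061, 5730 to 6663, 7967 to 9746 and 6937 to 8147 of all rows. Quantile normalization raised the re-expression count to 7, adding Mta1 at -0.28 (limma adjusted p = 0.00484), Mta2, Mbd3 and Gatad2a. It called 5541 of all rows there, against 4698 in the main fit. In P53-KO/Mta1 against P53-KO only 4 members passed when only the compared arrays were fitted, a fit that called 4055 of all rows. Only Chd4, thus 1, passed by the methods' t-test, which called 2329 of all rows where limma called 5003. In the other comparisons the methods' t-test passed 4 members in Mta1-KO against WT, 3 in re-expression (Gatad2a in place of Hdac2), and 6, 5 and 7 against WT. It called 5553, 3409, 5442, 6975 and 6165 of all rows there, where limma called 6732, 4698, 6453, 8956 and 7740. The replicate numbers did not pair the arrays (correlations between -0.38 and 0.42 for same-numbered arrays), and with a replicate block 6 members passed in P53-KO/Mta1 against P53-KO, losing Mbd2 (limma adjusted p = 0.0639), with no other count changed. A dim probe filter was not run, since centered values hold no signal, nor were other rows per gene, since each member has 1, nor the methods' t-test of the difference.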

Other observations

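Chromatin remodelers outside NuRD were also called lower more often than higher in Mta1-KO against WT. Of 4 other CHD genes with a row, 3 fell from WT to Mta1-KO, 3 rose in the arrays labelled as re-expression and 4 rose with over expression in P53-/- cells, with 0 in the opposite direction each time. Chd1l, a remodeler that answers poly(ADP-ribose) at damaged DNA, gave -1.46, 0.51 and 0.41 in these comparisons. Of 23 SWI/SNF subunits with a row, 13 were lower and 1 higher in Mta1-KO than in WT, with Brd7 at -1.48. They went both ways in the arrays labelled as re-expression (8 higher, 3 lower) and with over expression in P53-/- cells (6 higher, 2 lower). Of 6 other methyl-CpG-binding domain genes, 4 were lower in Mta1-KO than in WT and 4 were higher in Mta1-KO/Mta1 than in Mta1-KO, with 0 in the opposite direction. These comparisons share the Mta1-KO arrays. Of all rows, 22.6% were lower and 17.6% higher in Mta1-KO than in WT. Against Mta1-KO, the arrays labelled as re-expression had 12.4% higher and 15.7% lower. With over expression in P53-/- cells 15.7% were higher and 14.2% lower.

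Of 13 factors that recruit or bind NuRD, 2 were lower and 2 higher in Mta1-KO than in WT, with Twist1 1.17 higher, and of 7 ELM2-SANT relatives of the MTA proteins 2 were lower and 2 higher. Markers of endothelium (7 with a row) and of pluripotent cells (5) had 1 and 0 genes called in that comparison. Of 6 epithelial markers 1 was lower, of 7 blood and macrophage markers 1 was lower and 1 higher, of 5 neural markers 3 were lower, and of 3 muscle markers 1 was higher. In the same comparison 22.6% of all rows were lower and 17.6% higher.

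A second row that names Gatad2a also names Zfp868 and Zfp869, so its values belong to no single gene. It gave -0.47 in Mta1-KO against WT (limma adjusted p = 0.00628), 0.18 in Mta1-KO/Mta1 against Mta1-KO (limma adjusted p = 0.344) and 0.51 in P53-KO/Mta1 against P53-KO (limma adjusted p = 0.00595), and -1.16 in P53-KO against WT, where the row of Gatad2a alone gave 0.05.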
